A study of Homo sapiens with 5 samples.

Results

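The genes described here encode parts of the junctions that hold epithelial cells together: E-cadherin (CDH1), plakoglobin (JUP) and p120-catenin (CTNND1) of the adherens junction, the adhesion molecule EPCAM, the claudins CLDN3, CLDN4 and CLDN7, occludin (OCLN) and the scaffold ZO-1 (TJP1) of the tight junction, and desmoplakin (DSP) of the desmosome. The 10 genes were taken by name, and every probe set that the platform's gene table gives to one of them alone was taken, 16 probe sets of the 41091 with a single gene symbol. CTNND1 had 0 such probe sets, since its 4 are shared with the readthrough transcript TMX2-CTNND1, so it has no value here and 9 genes were read. RNA labelled as from C4-2B, a bone-metastatic line derived from LNCaP prostate cancer cells, was measured on 5 Affymetrix arrays, 1 per condition. The conditions were 25 µM BR-DIM (labelled B-DIM) for 48 h and for 6 h, 25 µM isoflavone for 72 h and for 6 h, and a control given 0.1% DMSO, all in serum-containing RPMI medium. BR-DIM is a formulated diindolylmethane, the dimer of a compound from cruciferous vegetables, and the isoflavone is a soy mixture rich in genistein. How long the control was cultured is not stated in those sources that were read. No condition has a second array, so no difference below was tested against the spread between replicates, and each value describes these 5 arrays.

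Cells of an epithelium are joined by several junctions that use different proteins. In the adherens junction E-cadherin binds its like on the next cell and is tied through catenins to actin. In the tight junction claudins and occludin seal the space between cells and are held by ZO-1, and in the desmosome cadherins are tied through plakoglobin and desmoplakin to keratin filaments. EPCAM is an epithelial surface protein that binds claudin-7. In carcinomas, loss of E-cadherin is known as part of the epithelial-mesenchymal transition.

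Signals are linear intensities. Those under 97.1, the median signal over the 5 arrays and called the floor here, were raised to it before a ratio was taken. A gene counts as measured where at least 1 of the 2 arrays compared exceeded the floor, it is represented by its brightest probe set, and it is counted as higher or lower at 2-fold or more. A ratio with one signal at the floor is a bound. The arrays were on one scale, with trimmed means between 498.1 and 498.4 and between 48.4% and 52.6% of probe sets above the floor.

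A check of the labelled cell type came out unevenly over the arrays. Of 12 prostate luminal and C4-2B markers with a probe set, 10 were lower than the control by 2-fold or more on BR-DIM 48 h and the same 10 on isoflavone 6 h, among them KLK3, which encodes prostate-specific antigen, and the keratin KRT18. Their summed signal was 4322 at 48 h and 17876 at 6 h of BR-DIM, 18069 at 72 h and 3851 at 6 h of isoflavone, and 18139 in the control, and KLK2, FOLH1 and TMPRSS2 lay under the floor on each of the arrays low in the sum. Of the 12, 8 were above the floor at 48 h and 12 at 6 h of BR-DIM, 12 at 72 h and 7 at 6 h of isoflavone, and 11 in the control. The mesenchymal intermediate filament gene VIM was bright on all 5 arrays, between 22024 and 50009. The control itself read 22024 for VIM, 2098 for CDH2, and 3762 and 2305 for the CDH1 repressor genes SNAI2 and ZEB1. Among its luminal markers KLK3 read 5096, KRT18 2738.5 and KRT8 429.1. What these values mean for the label was not tested. The summed signal of 11 mesenchymal genes was 63150 at 48 h and 46944 at 6 h of BR-DIM, 58312 at 72 h and 41471 at 6 h of isoflavone, and 35704 in the control. Most of it was VIM, and without it the sum was 13141 at 48 h and 16931 at 6 h of BR-DIM, 18145 at 72 h and 8195 at 6 h of isoflavone, and 13680 in the control. The brightest of the rest on every array was the fibronectin gene FN1, which weighs most in that sum. It read 6261.6 at 48 h and 10851.5 at 6 h of BR-DIM, 13580.3 at 72 h and 3510.6 at 6 h of isoflavone, and 9144.6 in the control. Of the 11 genes, 7 to 9 were above the floor on an array, and CDH11 and AXL were under it throughout. Of 9 fibroblast and osteoblast markers, 2 to 6 were above the floor, with sums between 1070 and 2316. Of 7 macrophage and osteoclast markers, 1 to 3 lay above the floor on an array and 0 were 2-fold apart from the control, and 0 of 9 housekeeping genes were. The shares of all genes lower and higher were 3.87% and 5.33% on BR-DIM 48 h and 0.806% and 2.86% on BR-DIM 6 h. They were 2.06% and 4.8% on isoflavone 72 h and 3.82% and 1.18% on isoflavone 6 h. Counts of 0 in lists this small lie near those shares. Results on BR-DIM 48 h and isoflavone 6 h therefore come from the 2 arrays with low luminal markers, whose part in them was not tested, and no array of those conditions has the markers at the control's level. In a bulk sample, fewer cells of a type and less RNA per cell cannot be told apart.

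By the 2-fold rule the junction genes split into parts that were low and parts that stayed within it. On BR-DIM 48 h, 3 of 8 measured genes were at least 2-fold lower than the control, namely CDH1, CLDN7 and EPCAM, a share of 37.5% beside 3.87% of all 12921 genes measured. On isoflavone 6 h, 4 of 8 were lower, the same 3 and OCLN, a share of 50.0% beside 3.82% of 12456. All 8 ratios were negative there, TJP1 the least at -0.51 on the log2 scale, and 6 of 8 were lower at 1.5-fold. The split on that array thus depends on the cutoff. At 6 h of BR-DIM and at 72 h of isoflavone 0 of 9 were lower, where 0.806% and 2.06% of all genes were. The count of junction genes at least 2-fold higher was 0 on every treated array, beside 5.33% (BR-DIM 48 h), 2.86% (6 h), 4.8% (isoflavone 72 h) and 1.18% (6 h) of all genes. CLDN4 was known only as a bound, at least 1.91-fold higher on isoflavone 72 h and at least 1.36-fold on BR-DIM 6 h. CLDN3 on BR-DIM 48 h was a bound too, at least 1.86-fold lower, so whether it passed the rule is not known. The median log2 ratio of the measured junction genes was -0.87 for BR-DIM at 48 h and 0.16 at 6 h, and 0.32 for isoflavone at 72 h and -0.96 at 6 h, beside medians of 0.06, 0.07, 0.05 and 0.004 over all genes. All of these ratios share the 1 control array. The junction genes were chosen with earlier results of these data known, so their shares are not those of an unselected set.

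**Figure D1:**
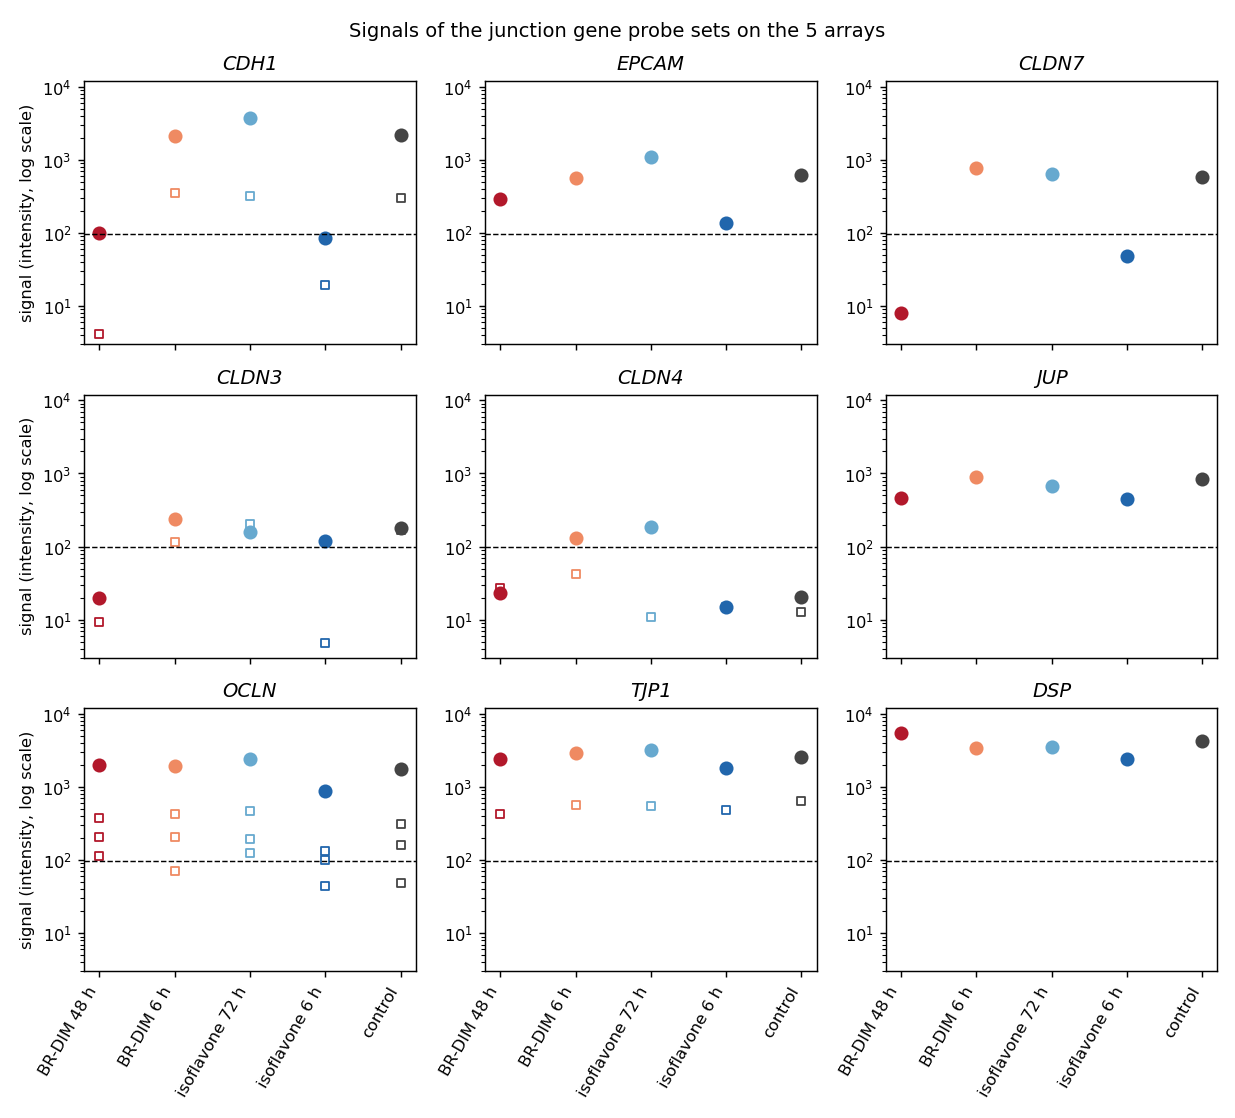
Signal of every probe set of the 9 junction genes (linear intensity, log axis) for BR-DIM at 48 h and at 6 h, for isoflavone at 72 h and at 6 h, and for the control. Filled circles are the brightest probe set of a gene, open squares its other probe sets, and the dashed line is the floor of 97.1. CDH1 and CLDN7 lie near or under the floor on BR-DIM 48 h and isoflavone 6 h, whereas TJP1 and DSP stay above 1804 on all 5 arrays in their brightest probe set.

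CLDN7 was under the floor on 2 arrays, OCLN reached 2-fold lower on isoflavone 6 h alone, and DSP stayed within 2-fold. On isoflavone 6 h OCLN and DSP lay close together, 2.0-fold and 1.77-fold lower than the control. With all probe sets averaged their log2 ratios there were -0.73 and -0.82, so which was lower depends on the processing. Sequences just before the start of these 3 genes are shown here. Each is the stretch of 250 bases before the outermost RefSeq start on GRCh38.p14, on the gene's own strand: CLDN7 at chr17:7263214-7263463 (minus strand), OCLN at chr5:69492297-69492546 (plus) and DSP at chr6:7541421-7541670 (plus). Capitals mark the E-box CACCTG or its reverse complement CAGGTG, the letters bound by the SNAI and ZEB repressors of CDH1.
CLDN7: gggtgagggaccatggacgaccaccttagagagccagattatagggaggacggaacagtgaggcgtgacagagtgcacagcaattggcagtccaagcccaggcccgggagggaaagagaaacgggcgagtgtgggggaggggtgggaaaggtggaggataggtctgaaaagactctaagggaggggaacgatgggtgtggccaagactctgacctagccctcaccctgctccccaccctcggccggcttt
OCLN: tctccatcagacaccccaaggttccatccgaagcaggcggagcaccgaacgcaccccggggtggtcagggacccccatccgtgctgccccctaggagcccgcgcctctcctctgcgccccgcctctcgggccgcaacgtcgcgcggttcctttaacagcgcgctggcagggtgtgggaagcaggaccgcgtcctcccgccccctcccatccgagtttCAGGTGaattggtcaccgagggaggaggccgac
DSP: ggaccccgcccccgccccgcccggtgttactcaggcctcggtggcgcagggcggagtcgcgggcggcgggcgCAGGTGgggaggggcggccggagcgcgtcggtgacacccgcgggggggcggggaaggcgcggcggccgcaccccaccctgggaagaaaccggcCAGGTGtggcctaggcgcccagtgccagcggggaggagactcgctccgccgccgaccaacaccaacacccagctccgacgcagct
This CLDN7 window has 0 matches, OCLN has 1, whose first base lies at -33 from the start, and DSP has 2, at -178 and -85. Of the other genes with a window in the table used, TJP1 has 1 match in its outermost window and CLDN3, CLDN4 and JUP have 0 in theirs. Over all 13 windows of the 7 genes, 6 hold the E-box on either strand, beside 17.5% of 35116 windows of the same length, and inner windows of CLDN7, JUP and OCLN have 4, 2 and 1 matches. The motif AACCGGTT of grainyhead-like factors was found in 0 of 13, beside 0.117% of all. A match is a run of letters and not a measured binding site.

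CDH1 (chromosome 16, 68737292 to 68835537 on GRCh38.p14) was near or under the floor on 2 treated arrays and bright on the others and in the control. Its brighter probe set, 201131_s_at, read 99.5 at 48 h and 2113.5 at 6 h of BR-DIM, 3736 at 72 h and 85.9 at 6 h of isoflavone, and 2195 in the control. BR-DIM 48 h and isoflavone 6 h therefore lay at about the floor and the rest near or above the control. CDH1 was 22.1-fold lower on BR-DIM 48 h (log2 ratio -4.46) and at least 22.6-fold lower on isoflavone 6 h. Its log2 ratios were -0.05 after 6 h of BR-DIM and 0.77 after 72 h of isoflavone, both under 2-fold. The dimmer probe set, 201130_s_at, showed the same split, with 4.2 at 48 h and 350.0 at 6 h of BR-DIM, 320.7 at 72 h and 19.3 at 6 h of isoflavone, and 297.9 in the control, at least 3.07-fold lower on both low arrays. With the 2 probe sets averaged, CDH1 had log2 ratios of -3.04 (BR-DIM 48 h) and -3.06 (isoflavone 6 h). With a floor of 471.7, the 75th percentile of signals, the bound was -2.22 on both. Both IDs end in _s_at, a kind of probe set that can match more than one transcript.

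Plakoglobin, encoded by JUP (chromosome 17, 41754609 to 41786711), belongs to the adherens junction and the desmosome alike. It had signals of 462.9 at 48 h and 900.7 at 6 h of BR-DIM, 683.2 at 72 h and 441.9 at 6 h of isoflavone, and 830.4 in the control. The same 2 arrays that were low in CDH1 were the lowest here too, but the ratios of -0.84 and -0.91 on the log2 scale, 1.79-fold and 1.88-fold lower, stayed under 2-fold. JUP was above the floor on all 5 arrays.

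α-Catenin and β-catenin, partners of E-cadherin inside the cell, stayed within 2-fold of the control. CTNNA1, the α-catenin gene, whose protein ties the complex to actin, read 5061 at 48 h and 4512 at 6 h of BR-DIM, 5009 at 72 h and 4520.3 at 6 h of isoflavone, and 3401 in the control. CTNNB1, the β-catenin gene, whose protein binds the tail of E-cadherin, read 3382 at 48 h and 3053 at 6 h of BR-DIM, 4669.7 at 72 h and 2877 at 6 h of isoflavone, and 3667 in the control. Of 14 other adherens junction genes, 12 were measured against the control on each array. The nectin NECTIN1 alone was lower after 48 h of BR-DIM (log2 ratio -1.37), while the LIM protein AJUBA (1.12) and the catenin ARVCF (at least 1.16) were higher. Of all genes, 3.87% were lower and 5.33% higher there. On isoflavone 6 h ARVCF was higher (at least 1.17) and 0 members were lower, beside 1.18% and 3.82% of all genes. ARVCF was higher on BR-DIM 6 h too (at least 1.05), and it was under the floor in the control alone, at 36.9.

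EPCAM (chromosome 2, 47369311 to 47387020) was lower on isoflavone 6 h than on BR-DIM 48 h, and lower on both than in the control. Its single probe set read 293.9 at 48 h and 565.5 at 6 h of BR-DIM, 1097 at 72 h and 137.9 at 6 h of isoflavone, and 614.5 in the control, above the floor on every array. The log2 ratio was -1.06 at 48 h (2.09-fold lower) and -0.12 at 6 h of BR-DIM, and 0.84 at 72 h and -2.16 at 6 h of isoflavone (4.46-fold lower). With the floor added as a pseudocount the BR-DIM 48 h value was -0.86, under 2-fold.

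Of 8 genes for relatives of EPCAM and for the protease matriptase with its inhibitors, 7 had a probe set and 5 were measured against the control on each array. The inhibitor gene SPINT2 read 39.5 at 48 h and 946.8 at 6 h of BR-DIM, 1012.5 at 72 h and 119.6 at 6 h of isoflavone, and 830.3 in the control. It was among 3 lower members on BR-DIM 48 h (log2 ratio of -3.10 or lower), with the tetraspanin CD9 (-1.30) and matriptase itself, ST14 (-1.24 or lower). The hyaluronan receptor CD44 was higher there (1.25). On isoflavone 6 h 4 members were lower, SPINT2 (-2.80), CD9 (-2.04), SPINT1 (-1.93 or lower) and ST14 (-1.24 or lower). ST14 was lower on BR-DIM 6 h too (-1.24 or lower), and 0 members were lower on isoflavone 72 h. The shares over all genes were 3.87% lower and 5.33% higher on BR-DIM 48 h and 3.82% lower on isoflavone 6 h. They were 0.806% lower on BR-DIM 6 h and 2.06% lower on isoflavone 72 h.

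The claudins form the strands of the tight junction. CLDN7 (chromosome 17, 7259903 to 7263213) read 8.0 at 48 h and 772.4 at 6 h of BR-DIM, 638.2 at 72 h and 48.8 at 6 h of isoflavone, and 592.5 in the control. It was under the floor on the same pair of arrays as CDH1 and at least 6.1-fold lower on each, against log2 ratios of 0.38 (BR-DIM 6 h) and 0.11 (isoflavone 72 h). With that floor of 471.7 the bound of CLDN7 was -0.33 on both arrays, since its control signal lies not far above that level.

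CLDN3 and CLDN4, neighbours on chromosome 7 with 60725 bases between them, lay close to the floor. The brighter CLDN3 probe set (203954_x_at) read 19.6 at 48 h and 238.2 at 6 h of BR-DIM, 156.6 at 72 h and 121.0 at 6 h of isoflavone, and 180.9 in the control. The other, 203953_s_at, read 9.4 at 48 h and 116.7 at 6 h of BR-DIM, 201.4 at 72 h and 4.8 at 6 h of isoflavone, and 166.8 in the control. The 2 probe sets differed on isoflavone 6 h, where one was above the floor and the other far below it. The bound for CLDN3 on BR-DIM 48 h was at least 1.86-fold lower, and its ratio on isoflavone 6 h was -0.58 on the log2 scale. Without a floor the BR-DIM 48 h ratio was -3.21, and with the floor as a pseudocount it was -1.25, past 2-fold. CLDN4 read 23.1 at 48 h and 131.7 at 6 h of BR-DIM, 185.2 at 72 h and 14.7 at 6 h of isoflavone, and 20.2 in the control, so it was above the floor on 2 arrays and under it in the control. It was at least 1.91-fold higher on isoflavone 72 h, and without a floor its log2 ratio was 3.2 there and 2.7 on BR-DIM 6 h. Its second probe set was under the floor on all 5 arrays.

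Occludin spans the membrane beside the claudins. OCLN (chromosome 5, 69492547 to 69558104) had 4 probe sets, and the brightest, 227492_at, read 2016 at 48 h and 1959 at 6 h of BR-DIM, 2405.5 at 72 h and 869.7 at 6 h of isoflavone, and 1742 in the control. BR-DIM 48 h was thus close to the control (log2 ratio 0.21) and isoflavone 6 h alone stood low, 2.0-fold below the control. That value was on the edge of the 2-fold rule, with -0.98 under quantile normalization, -0.93 with a pseudocount in place of the floor and -0.73 with the probe sets averaged. Probe set 231022_at gave -1.21 on isoflavone 6 h and 0.31 on BR-DIM 48 h, and 209925_at gave -0.69 and 0.35. The dimmest, 235937_at, was under the floor in the 6 h arrays of both compounds and in the control.

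TJP1 (chromosome 15, 29699367 to 29969049) and DSP (chromosome 6, 7541671 to 7586714) stayed within 2-fold on every array. TJP1, whose protein holds claudins and occludin to the actin skeleton, read 2452 at 48 h and 2878 at 6 h of BR-DIM, 3222 at 72 h and 1804 at 6 h of isoflavone, and 2573 in the control. Its log2 ratios were -0.07 (BR-DIM 48 h) and -0.51 (isoflavone 6 h), and -0.58 and -0.43 in its second probe set. DSP read 5503 at 48 h and 3387 at 6 h of BR-DIM, 3583 at 72 h and 2431 at 6 h of isoflavone, and 4297 in the control. It was the highest of its 5 signals on BR-DIM 48 h (log2 ratio 0.36) and the lowest on isoflavone 6 h (-0.82, 1.77-fold lower).

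**Figure D2:**
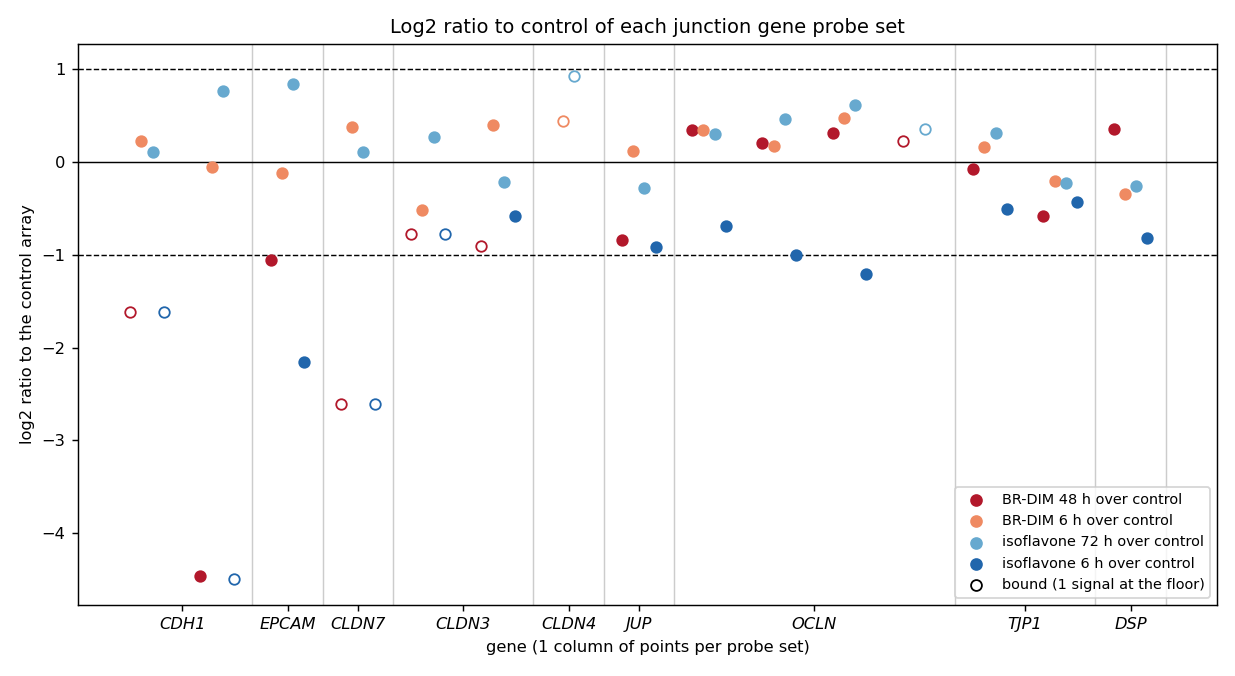
Log2 ratio to the control array of each junction gene probe set, 1 column of points per probe set, for BR-DIM at 48 h and at 6 h and for isoflavone at 72 h and at 6 h. Dashed lines mark 2-fold and open circles are bounds. CDH1, CLDN7 and EPCAM lie below the lower line on BR-DIM 48 h and isoflavone 6 h, and OCLN reaches it on isoflavone 6 h alone.

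Counted by probe set, 4 of 14 measured were past 2-fold lower on BR-DIM 48 h (beside 4.41% of all probe sets), 0 of 14 at 6 h (1.38%), 0 of 15 with isoflavone for 72 h (3.19%) and 6 of 13 for 6 h (3.52%). Of the 16, 8 were above the floor on all 5 arrays, 7 on some and 1 on none.

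Within BR-DIM, 48 h was set against 6 h without the control. CDH1, CLDN7 and CLDN3 were at least 2-fold lower at 48 h, 3 of 9 measured beside 3.74% of all genes: CDH1 was 21.2-fold lower, CLDN7 at least 7.95-fold and CLDN3 at least 2.45-fold. With the probe sets averaged the CLDN3 value was -0.78 on the log2 scale, under 2-fold. JUP (log2 ratio -0.96) and EPCAM (-0.94) were just under the rule, and DSP stood at 0.70. Within isoflavone the later array was the higher one. CDH1 was at least 38.5-fold higher at 72 h than at 6 h, EPCAM 7.96-fold, CLDN7 at least 6.57-fold and OCLN 2.77-fold, 4 of 9 beside 7.77% of all genes. By the labels, the low signals were thus on the late array of BR-DIM and on the early array of isoflavone, the same arrays that were low in luminal markers.

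The 6 h arrays are the one time shared by both compounds, each at 25 µM. BR-DIM was at least 2-fold higher than isoflavone in 5 of 9 junction genes, CDH1, CLDN7, EPCAM, OCLN and JUP, beside 7.01% of all genes. JUP (log2 ratio 1.03) was nearest to the rule and was 0.94 under quantile normalization.

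Of 64 further genes of adherens and tight junctions, desmosomes, polarity complexes, hemidesmosomes and gap junctions, 59 had a probe set, of which each of the arrays low in CDH1 gave 47 measured genes. On BR-DIM 48 h 3 were lower (6.38%, beside 3.87% of all genes) and 3 higher (6.38%, beside 5.33%), and the median log2 ratio was 0.22. On isoflavone 6 h 5 were lower (10.6%, beside 3.82%) and 1 higher (2.13%, beside 1.18%), with a median of -0.45.

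Among the other tight junction genes, LSR, whose protein marks tricellular corners, alone was lower after 48 h of BR-DIM (log2 ratio -1.47). It read 99.4 at 48 h and 222.8 at 6 h of BR-DIM, 316.0 at 72 h and 137.8 at 6 h of isoflavone, and 275.4 in the control, and on isoflavone 6 h it was just short of 2-fold lower. In that list 1 of 10 measured genes was lower on BR-DIM 48 h, beside 3.87% of all genes. On isoflavone 6 h 0 of 10 were, beside 3.82%, with a median log2 ratio of -0.67.

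Among the other desmosome genes, plakophilin PKP3 read 70.6 at 48 h and 207.7 at 6 h of BR-DIM, 181.0 at 72 h and 91.4 at 6 h of isoflavone, and 303.0 in the control, a log2 ratio of -1.64 or lower on the 2 arrays under the floor. The desmosomal cadherin DSC2 (-1.13) and plakophilin PKP2 (-1.09) were lower on isoflavone 6 h alone, and the membrane protein PERP was higher on BR-DIM 48 h (1.32). DSG2, the desmosomal cadherin of simple epithelia, was within 2-fold on both, at 6211 for BR-DIM 48 h and 2852.5 for isoflavone 6 h, against 3888 in the control.

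**Figure D3:**
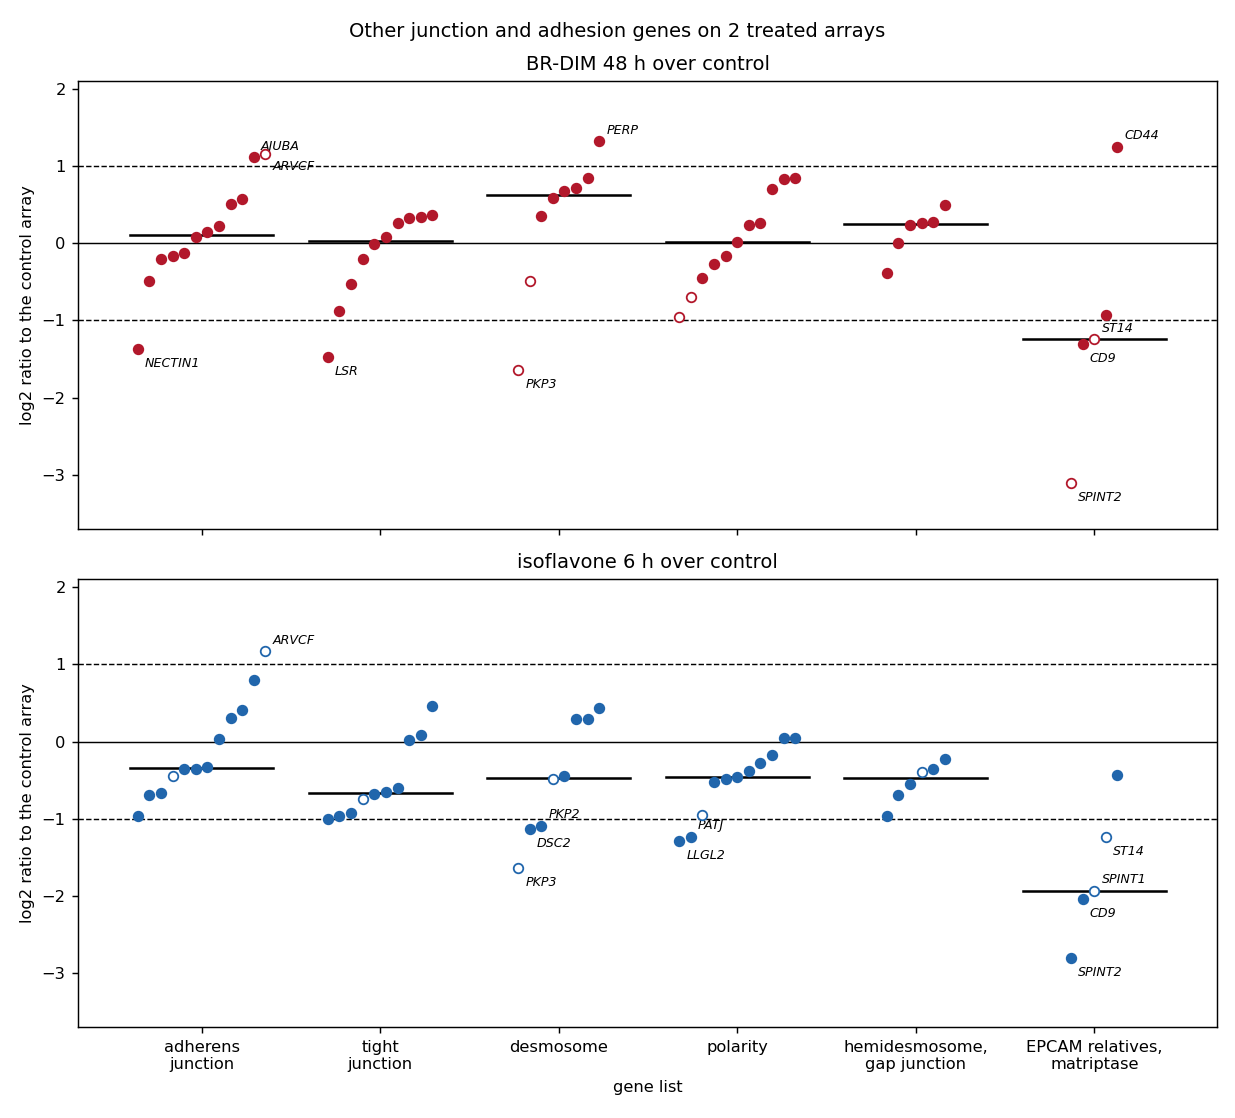
Log2 ratio to the control of further junction and adhesion genes, by list, on BR-DIM 48 h (upper panel) and isoflavone 6 h (lower panel). Each circle is a gene, open circles are bounds, bars are list medians and dashed lines mark 2-fold; genes past 2-fold are named. Most genes of the 5 junction lists lie within the lines, and SPINT2 is the lowest point on both arrays.

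Regulators were read from 2 lists, repressors of CDH1 and activators of epithelial genes. Of 10 repressors, 7 were measured at 48 h of BR-DIM and at 6 h of isoflavone, and ZEB2 was the one member past 2-fold, higher on BR-DIM 48 h, with 386.9 there, 177.1 at 6 h of BR-DIM, 204.2 at 72 h and 85.5 at 6 h of isoflavone, and 169.9 in the control. Of all genes, 5.33% were higher on BR-DIM 48 h. SNAI1 was under the floor on all 5 arrays. SNAI2, ZEB1 and TWIST1 were above it on all 5, the control included, SNAI2 at 6537 for BR-DIM 48 h and 4550.1 for isoflavone 6 h, against 3762 in the control. The summed signal of the repressors was 16232 at 48 h and 12834 at 6 h of BR-DIM, 10714 at 72 h and 10737 at 6 h of isoflavone, and 10773 in the control. It was thus highest on one of the arrays low in CDH1 and close to the control on the other.

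The activators of epithelial genes, such as grainyhead-like and ETS-family factors, included members as low as CDH1. Their summed signal was 2872 at 48 h and 6024 at 6 h of BR-DIM, 8764 at 72 h and 1761 at 6 h of isoflavone, and 6213 in the control, for 10 genes with a probe set. GRHL2 read 43.5 at 48 h and 669.8 at 6 h of BR-DIM, 935.9 at 72 h and 85.9 at 6 h of isoflavone, and 831.1 in the control. On BR-DIM 48 h 3 members were lower, EHF (log2 ratio of -4.84 or lower), GRHL2 (-3.10 or lower) and FOXA1 (-1.77), and KLF4 was higher (1.23). On isoflavone 6 h 5 were lower, the same 3 with ESRP1 (-1.95 or lower), a splicing regulator of epithelial cells, and OVOL2 (-1.94). All 10 were measured on these arrays. Of all genes, 3.87% were lower and 5.33% higher on BR-DIM 48 h, and 3.82% were lower on isoflavone 6 h.

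Mesenchymal genes differed between the arrays low in CDH1. On BR-DIM 48 h VIM (log2 ratio 1.18) and the lysyl oxidase LOX (1.04) were higher, and on isoflavone 6 h 0 of 7 measured were higher while fibronectin FN1 (-1.38) and caveolin CAV1 (-1.18) were lower. Of all genes, 5.33% were higher on BR-DIM 48 h, and 1.18% were higher and 3.82% lower on isoflavone 6 h. N-cadherin, CDH2, was above the floor throughout, at 3511 at 48 h and 2731 at 6 h of BR-DIM, 2539 at 72 h and 2696.5 at 6 h of isoflavone, and 2098 in the control. Unlike CDH1 it was within 2-fold of the control on each array.

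**Figure D4:**
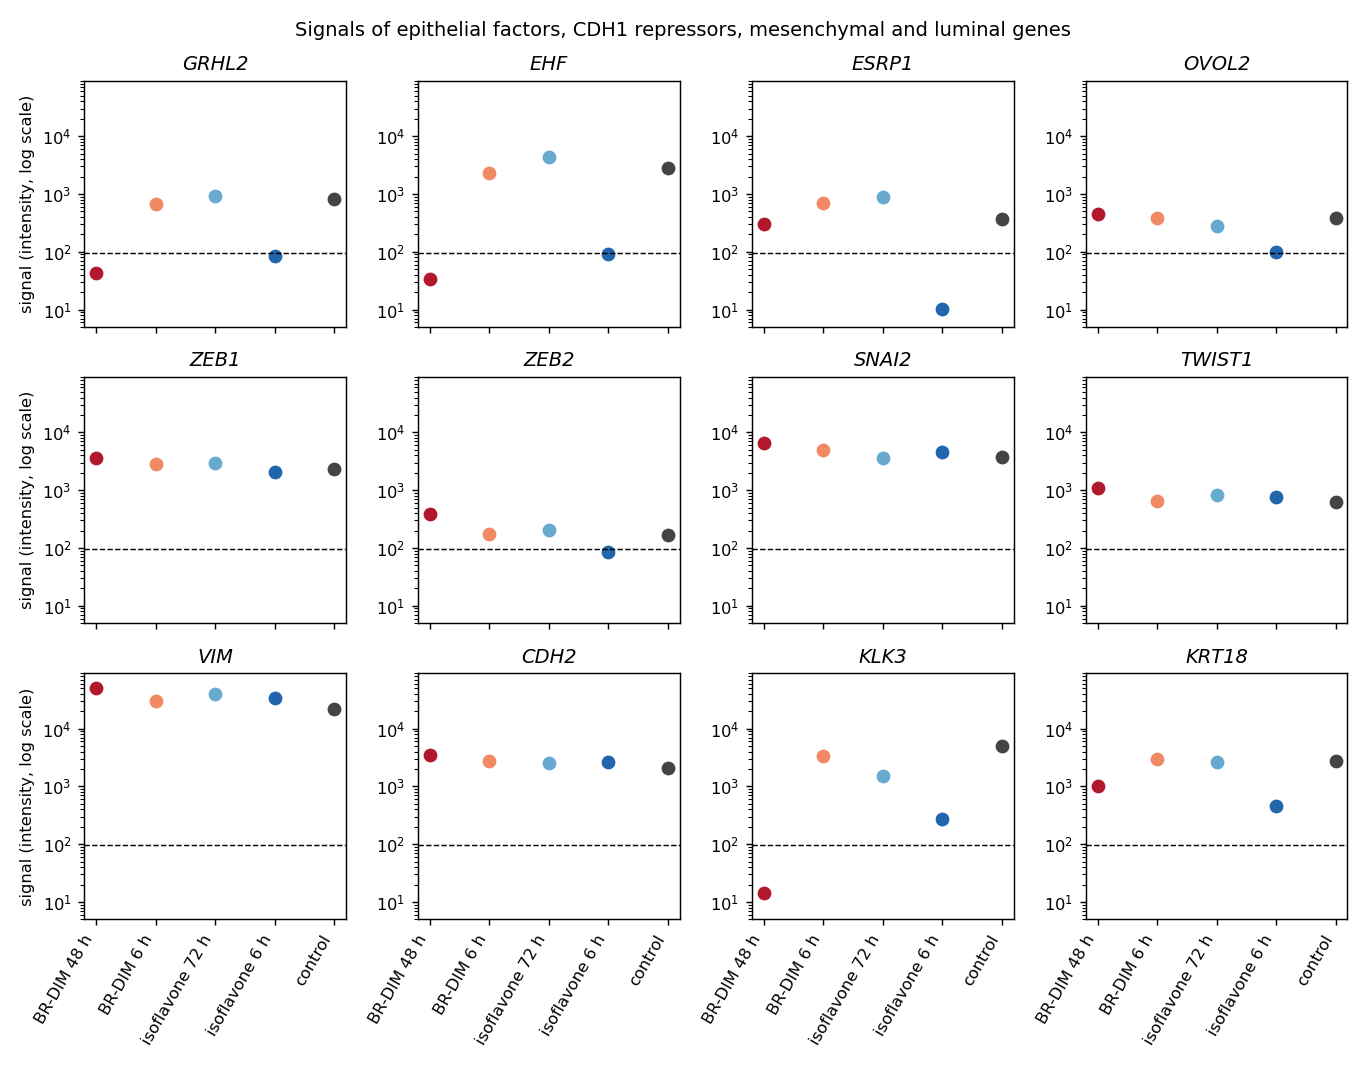
Signals (linear intensity, log axis) of epithelial factors (GRHL2, EHF, ESRP1, OVOL2), repressors of CDH1 (ZEB1, ZEB2, SNAI2, TWIST1), mesenchymal genes (VIM, CDH2) and luminal markers (KLK3, KRT18) on the 4 treated arrays and the control, with the floor as a dashed line. GRHL2 and EHF lie under the floor on BR-DIM 48 h and isoflavone 6 h, whereas SNAI2 and VIM are above 3551 on all 5 arrays.

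The genes whose 4 ratios to the control lay nearest to those of CDH1, by Euclidean distance on the log2 scale among 9332 genes, were EHF (0.56), H2AJ (0.86), MGST1 (0.89), MAGEA6 (1.1) and MME (1.25). EHF, the nearest, read 33.5 at 48 h and 2296 at 6 h of BR-DIM, 4347 at 72 h and 91.8 at 6 h of isoflavone, and 2775 in the control. The distances use ratios with dim signals raised to the floor, so those of genes under the floor, CDH1 and EHF among them, rest in part on bounds, and their order is not exact. They describe 4 arrays against 1 shared control.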

How the data were processed

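The authors deposited intensity values, 1 linear signal per probe set and array, made with Microarray Suite software (MAS5 in the submitters' processing notes) and scaled to a common level; the scaling target and detection calls are not given in the sources used here. Of 54613 probe sets, 41091 carry 1 symbol in the gene table used, 1801 several and 11721 are not in it; only the first were used, for 19775 genes. Log2 ratios, floor and the 2-fold rule were computed as described above with Python 3.11.15, numpy 2.4.6 and pandas 2.3.3, and drawn with matplotlib 3.10.9. With 1 array per condition no test was run.

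The members and lists were chosen with earlier results of these data known. Named genes were all members, in each further list up to 4 genes with the largest changes among those past 2-fold on BR-DIM 48 h or isoflavone 6 h, luminal markers as the label check needed them, and the 5 genes nearest CDH1 that reached 4 times the floor or more on an array. CTNNA1, CTNNB1, DSG2, SNAI1, SNAI2, ZEB1, TWIST1, CDH2, ST14, OVOL2, KLF4, CDH11, AXL, PARD6B and GJA1 were chosen after their values were seen. Promoter sequences and coordinates come from RefSeq (GRCh38.p14); CDH1, EPCAM and CTNND1 had no promoter entry. The code for the ratios and calls was checked on the control array with simulated noise and known changes put into genes above 4 times the floor. No change was put into dimmer genes, and the check does not bear on the spread between arrays. The alternatives were quantile normalization, median ratio scaling, no floor, raising it to the 75th percentile, the floor as a pseudocount, probe sets averaged, leaving out those that end in _s_at or _x_at, and 1.5-fold or 3-fold as the rule. The number of arrays, not depth, limits the precision.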

Additional observations from a re-analysis of the deposited data

How the results depend on the processing

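Of 45 counts of junction genes under an alternative whose main value was above 0, 32 stayed within 1.5 times it and 13 did not. A count that stayed can hold other genes. With the floor as a pseudocount the 3 lower genes on BR-DIM 48 h were CDH1, CLDN7 and CLDN3 (log2 ratio -1.25), without EPCAM (-0.86). No ratio past 2-fold changed sign; 4 smaller ones did with all probe sets averaged, namely CDH1 (0.09 for -0.05), CLDN3 (-0.06 for 0.40) and TJP1 (-0.02 for 0.16) on BR-DIM 6 h and CLDN3 (0.03 for -0.21) on isoflavone 72 h. On BR-DIM 48 h the 3 lower genes became 1 (CDH1) with the floor raised to the 75th percentile, 1 (CLDN7) without _s_at and _x_at probe sets, which removes CDH1, EPCAM, JUP and CLDN3 from the count, and 5 at 1.5-fold. On isoflavone 6 h the 4 lower became 2 (CDH1 and OCLN) with that floor, 2 (CLDN7 and OCLN) without those probe sets and 6 at 1.5-fold. For BR-DIM 48 h over 6 h the 3 lower became 1, 1 and 5 under the same settings. For isoflavone 72 h over 6 h the 4 higher became 2 without those probe sets and 7 at 1.5-fold, and for BR-DIM 6 h over isoflavone 6 h the 5 higher became 2 with the higher floor, 2 without those probe sets and 3 at 3-fold. CLDN4 alone became higher, 1 where there were 0, without a floor on BR-DIM 6 h and isoflavone 72 h and with the pseudocount on isoflavone 72 h, where 3 were higher at 1.5-fold. Over all genes, quantile normalization moved the share of higher genes to 44.8% (334 higher, 412 lower) for BR-DIM 48 h over 6 h, against 32.8% (245 and 501), and to 73.5% (688 and 248) for BR-DIM 6 h over isoflavone 6 h, against 86.3% (916 and 146). Signals near the floor limit CLDN3 and CLDN4. No array was left out and no paired analysis was possible because each condition has 1 array.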

Other observations

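Among 11 polarity genes, all measured against the control, PATJ of the Crumbs complex and LLGL2 of the Scribble complex passed 2-fold lower on isoflavone 6 h, PATJ at 127.3 against 298.0 on the control and LLGL2 at 120.5 against 295.1. With BR-DIM for 48 h 0 polarity genes passed 2-fold in either direction. PATJ passed 2-fold higher on isoflavone 72 h, at 776.8, and PARD6B on BR-DIM 6 h, at 388.2 against 147.7 on the control. Over all genes 3.82% were lower on isoflavone 6 h, and 3.87% were lower and 5.33% higher on BR-DIM 48 h. The shares of higher genes were 4.8% on isoflavone 72 h and 2.86% on BR-DIM 6 h.

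Hemidesmosome and gap junction genes had 0 of 6 measured members past 2-fold with BR-DIM for 48 h and with isoflavone for 6 h. Of all genes, 3.87% were lower and 5.33% higher on BR-DIM 48 h, and 3.82% and 1.18% on isoflavone 6 h. The connexin GJA1 read 5512 at 48 h and 4475 at 6 h of BR-DIM, 4052 at 72 h and 2658 at 6 h of isoflavone, and 3889 in the control.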
